A study of Mus musculus with 8 samples.

Results

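Granulosa cells labelled as knockout for CNOT6 and CNOT6L were compared with wild-type granulosa cells 44 h after PMSG, in 2 libraries of each genotype. Genes were included where FPKM (fragments scaled to transcript length and library size) was at least 1 in at least 2 of these 4 libraries, which kept 12841 of the 23235 genes listed. Just inside this limit, the second-highest value was 1.00 for Cacna2d3, Dclk3 and Solh. Just outside it, Tex19.2, Wisp1 and 1810064F22Rik had second-highest values of 0.999, 1.00 and 1.00, each below 1 before rounding. Each knockout (KO) library is given below beside the range of the wild-type (WT) pair.

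Granulosa cells surround and feed the oocyte in the ovarian follicle. PMSG is a gonadotropin with FSH-like activity: it drives follicle growth, and the granulosa cells then gain LH receptors, steroid-producing enzymes and a high rate of division. CNOT6 and CNOT6L are closely related deadenylases of the CCR4-NOT complex, which shortens the poly(A) tails of mRNAs as the entry step of their decay. A transcript whose decay needs the complex can persist when it is missing.

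All libraries came from female C57BL/6 mice, with RNA taken up in Trizol from flash-frozen cells labelled as ovarian granulosa cells, and a TruSeq and a TruePrep kit are both named for the libraries. The groups used here were WT and CNOT6/6L KO (also written Cnot66l DKO) at 44 h of PMSG, and, for reference, the same genotypes without treatment (0 h), again with 2 libraries each. The labels give no hormone dose, no age, no promoter or cell type that drives the deletion and no deleted exon. They also do not state that replicates are separate animals, so the p-values below may reflect technical spread alone. With 2 libraries against 2, an exact permutation test cannot give a p below 0.333, so tests come from a limma model on log2(FPKM + 1) over all 8 libraries.

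The deleted genes serve as a check of the labels. For Cnot6 the WT libraries gave 26.0 and 26.9 FPKM, KO replicate 1 gave 26.7 and KO replicate 2 gave 17.4. The library labelled KO replicate 1 thus lay inside the WT range for Cnot6, while KO replicate 2 lay below it, and the difference in means was -0.28 on the log2 scale (SE 0.269, limma adjusted p = 0.723). For Cnot6l WT gave 4.2 and 2.63, KO replicate 1 gave 2.01 and KO replicate 2 gave 1.61. Both KO libraries were below WT for Cnot6l, by a mean of -0.63 (SE 0.343, adjusted p = 0.564). At 0 h both KO libraries were lower than both WT libraries for Cnot6, at 11.7 and 12 against 29.1 and 18.4. Because of the Cnot6 value, the first of the KO libraries is called labelled KO 1 from here on, and the other KO 2. These values do not show whether labelled KO 1 carries the deletion, so any direction given for it, or for a mean that includes it, rests on its label. Relative depth, read from the spacing of low FPKM values, was 1.03 and 0.971 in WT, 1.00 in labelled KO 1 and 1.25 in KO 2.

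The KO libraries differed more from each other than the WT libraries did. Of the 12841 genes, 1441 were at least 1 apart on the log2(FPKM + 1) scale between labelled KO 1 and KO 2, against 349 between the WT libraries. Labelled KO 1 lay above the WT range for 42.4% of genes and below it for 38.4%. KO 2 lay above it for 41.2% and below it for 29.3%. Which side held more genes depended on the scaling. KO 2 was above for 5295 genes and below for 3756 as deposited, for 4154 and 5017 with quantile normalization, and for 4314 and 4697 with median-of-ratios scaling. Labelled KO 1 was above for 5447 and below for 4925 as deposited, for 5515 and 5105 with quantile normalization, and for 5051 and 5236 with median-of-ratios scaling. By a margin of at least 1, labelled KO 1 was above the range for 498 genes (3.88%) and below it for 585 (4.56%), and KO 2 for 195 (1.52%) and 44 (0.343%). Both KO libraries were on the same side of WT for 23.2% of genes (above) and 15.7% (below), which became 2481 above against 2613 below with quantile normalization and 2440 against 2568 with median-of-ratios scaling, from 2978 against 2018. They were on opposite sides of WT for others, with labelled KO 1 above and KO 2 below for 9.38% (1204 genes) and the reverse for 11.4% (1470). These became 1661 and 1137 with quantile normalization, and 1321 and 1241 with median-of-ratios scaling. The median difference from the WT mean over all these genes was 0.028 in labelled KO 1 and 0.054 in KO 2.

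**Figure D1:**
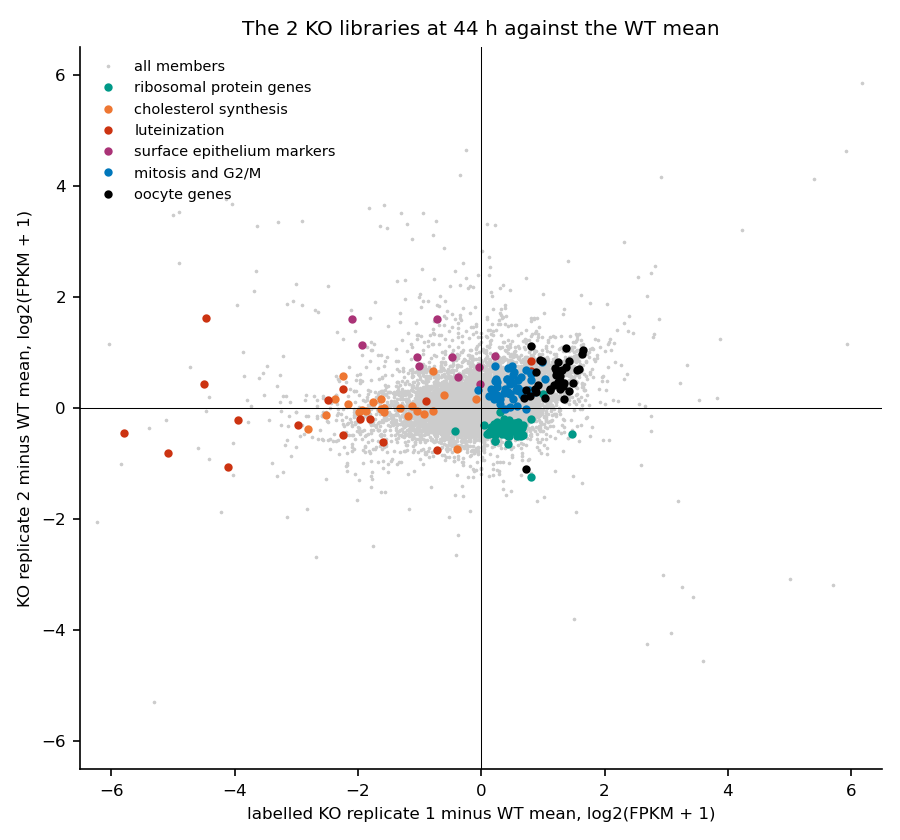
Each point is a gene, placed by its difference from the WT mean in the library labelled KO replicate 1 (horizontal) and in KO replicate 2 (vertical), both on log2(FPKM + 1) at 44 h, with 6 gene groups coloured and 12 genes outside the axes. Oocyte genes and mitotic genes lie to the upper right, ribosomal protein genes to the lower right, and luteinization and cholesterol synthesis genes far to the left but near 0 in height.

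Across 13688 genes tested, which hold all 12841, limma called 3 at an adjusted p under 0.05 (0.0219%), 1 of them higher in KO (0.00731%) and 2 lower (0.0146%). All 3 were short RNA entries. Snord99, a small nucleolar RNA, was 3833 and 2024 FPKM in WT and listed at 0 in both KO libraries (adjusted p = 2.21e-05). Mirlet7d, a microRNA entry, was 37.4 and 39.5 in WT and listed at 0 in both KO libraries (adjusted p = 7.86e-05). Mir19b-1 was listed at 0 in WT and was 84.0 and 269 in KO (adjusted p = 0.00519). Each of the 3 was listed at 0 in all 4 libraries at 0 h. Scaled by relative depth, their fragment numbers in the libraries where they appeared stood in the ratios 0.50 (Snord99), 1 (Mirlet7d) and 4 (Mir19b-1), second library over first. How many fragments lay behind each value cannot be read from FPKM. The call of Mir19b-1 was lost without WT replicate 1 (adjusted p = 0.163), without WT replicate 2 (0.0613) and with the libraries at 44 h alone (0.18). Without short RNA entries, a fit chosen after seeing the data, 0 genes were called and 1375 had an unadjusted p under 0.05.

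Among the 12841 genes, 1300 had an unadjusted limma p under 0.05, of which 879 were higher and 421 lower in KO, and the smallest adjusted p outside the short RNA entries was 0.103. The number of calls rested on single libraries. It was 801 without KO 2 (313 higher, 488 lower), where the lone labelled KO 1 is assumed to vary like the other groups. It was 7 without labelled KO 1 and 7 without WT replicate 2, and 5 without either WT library at 0 h. The accounts that follow therefore give positions of each library, and none of the genes named after this point passed the adjusted test.

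Both KO libraries were at least 1 above the WT range for 48 genes (0.374%) and at least 1 below it for 18 (0.14%). Of the 48, 31 (64.6%) also had both KO libraries above both WT libraries at 0 h, and 0 had both below, beside 26.2% of all genes above and 19.8% below at 0 h. Of the 18, 2 (11.1%) were also below and 1 (5.56%) was above at 0 h. The genes described next have the widest gaps between the nearest KO and WT library.

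Class I histocompatibility genes had the widest gaps upward. H2-Q6, of the Qa region, was 0.3 and 0.317 FPKM in WT, 6.63 in labelled KO 1 and 5.72 in KO 2, a difference of 2.45 (SE 0.262, limma adjusted p = 0.103). H2-Q7 was 3.85 and 2.12 in WT, 26.5 in labelled KO 1 and 21.7 in KO 2, a difference of 2.68 (SE 0.373, adjusted p = 0.28). Both were also higher in KO at 0 h, where H2-Q7 was 2.27 and 1.52 in WT against 18 and 8.62 in KO. The H2-Q genes are near-identical copies of each other, and reads shared among them make the split between members uncertain.

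Fetub, a liver and follicle protein that inhibits the zona-hardening protease ovastacin, showed close agreement within each genotype: it was 46.0 and 45.6 in WT, 115 in labelled KO 1 and 113 in KO 2. Its difference was 1.29 (SE 0.167, adjusted p = 0.239), and at 0 h it was 19.7 and 25.0 in WT against 94.0 and 78.4 in KO. Agr3, a disulfide isomerase relative, was 4.30 and 5.34 in WT, 22.8 in labelled KO 1 and 20.3 in KO 2. Cpxm1, a carboxypeptidase-like secreted protein, was 27.1 and 26.7 in WT, 144 in labelled KO 1 and 72.2 in KO 2. For these genes both KO libraries stood well clear of a narrow WT pair, and that gap is given by their choice. Serpinb12 (2.37 and 2.09 in WT, 8.90 and 12.2 in KO), Nell1 (1.70 and 1.86, 7.33 and 6.04) and Gtf2a1l, a germ cell variant of a general transcription factor (4.61 and 3.83, 13.2 and 11.8), had the same layout. S100a8, a calcium-binding protein of neutrophils, was 14.0 and 12.2 in WT, 72.9 in labelled KO 1 and 43.2 in KO 2, but only up to 8.90 in any library at 0 h. Defb50, Nrsn1 and Fam19a4 completed the 12 widest upward gaps, each below 20 FPKM in labelled KO 1 and below 10 in KO 2.

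Downward, KO 2 was the KO library nearer to WT in all 12 genes but Hist1h4c, and labelled KO 1 lay further out. Cish, a cytokine-induced inhibitor of JAK-STAT signalling, was 8.46 and 12.9 in WT, 0.608 in labelled KO 1 and 2.24 in KO 2, a difference of -2.33 (SE 0.371, limma adjusted p = 0.344). At 0 h Cish was between 0.721 and 1.46 in all 4 libraries. Ghr, the growth hormone receptor, which signals through that pathway, was 20.7 and 22.8 in WT, 10.5 in labelled KO 1 and 11.1 in KO 2. For Ghr both KO libraries stood at nearly the same level, and at 0 h it was 51.7 and 63.9 in WT against 25.3 and 14.0 in KO. Pla2g5, a secreted phospholipase, was 8.64 and 8.53 in WT, 0.672 in labelled KO 1 and 2.97 in KO 2.

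Ppp1r14a, an inhibitor of myosin phosphatase, was 305 and 355 in WT, 19.2 in labelled KO 1 and 142 in KO 2. Bhmt, which remethylates homocysteine, was 107 and 114 in WT, 0.935 in labelled KO 1 and 54.2 in KO 2. In both genes KO 2 lay about 1 log2 unit below WT and labelled KO 1 several units lower still. Vnn1, a pantetheinase (30.3 and 39.4 in WT, 9.39 and 15.1 in KO), Acss1, a mitochondrial acetyl-CoA synthetase (9.67 and 7.55, 1.08 and 3.65), and Isoc2b (25.4 and 24.9, 6.54 and 10.2) had the same order. Cst8, a cystatin of the reproductive tract, was 212 and 395 in WT, 72.2 in labelled KO 1 and 117 in KO 2. Hist1h4c, a histone H4 gene, was 7.72 and 3.71 in WT and listed at 0 in both KO libraries. Hbb-b2 and Beta-s, both beta-globin entries that share reads, belong with the red cell markers described further on.

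**Figure D2:**
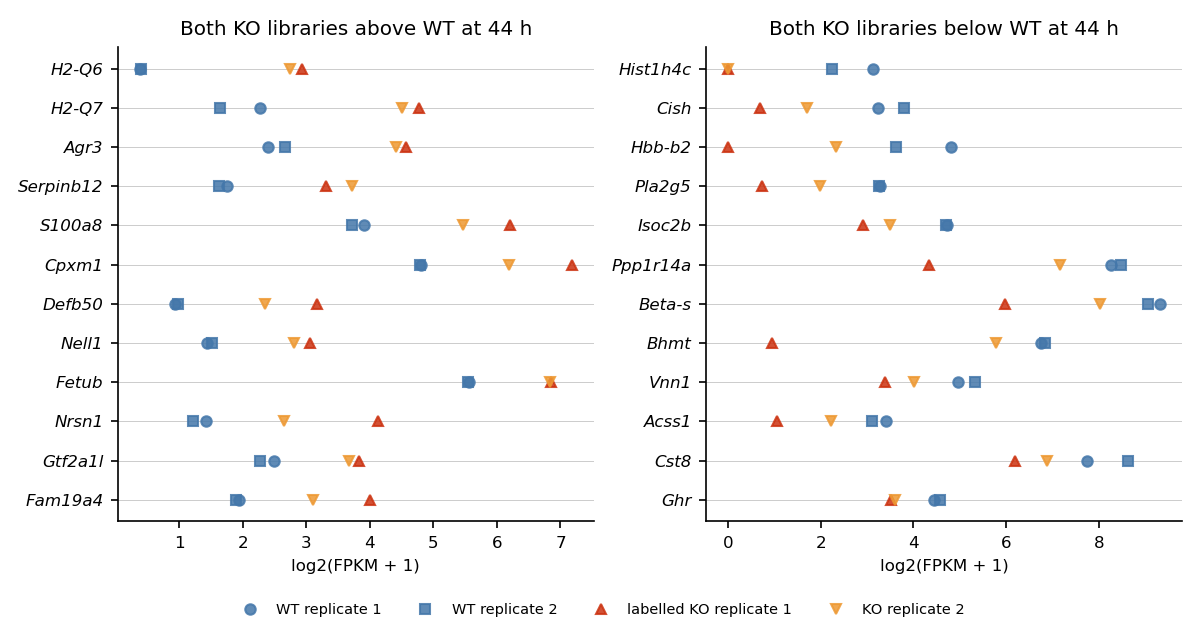
The 12 genes in each direction with the widest gap between the nearest KO and WT library at 44 h, each row a gene and each symbol a library, on log2(FPKM + 1). On the left both KO symbols lie to the right of both WT symbols, with H2-Q6 and Fetub tightly paired, and on the right labelled KO 1 is mostly the lowest, as for Bhmt at 0.935 FPKM.

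The CCR4-NOT complex itself had members on both sides of WT. Of its 12 listed subunits, all included, 3 had both KO libraries above WT (25.0%) and 1, Cnot6l, both below (8.33%), near the 23.2% above and 15.7% below of all genes, and 1 had an unadjusted p under 0.05. Rqcd1, the CNOT9 subunit that docks RNA-binding adaptors, was 22.4 and 20.7 in WT, 30.0 in labelled KO 1 and 26.4 in KO 2. Cnot3, a scaffold subunit, was 11.6 and 9.39 in WT, 18.1 in labelled KO 1 and 14.4 in KO 2, and Cnot7, which encodes a catalytic partner subunit, was 93.9 and 81.3, then 105 and 87.3. Cnot3 and Rqcd1 lay above the WT range in both KO libraries, whereas Cnot7 in KO 2 was inside it. Among 19 deadenylation adaptors, 5 (26.3%) were above in both KO libraries and 0 below, with a median of 0.46 in labelled KO 1 and 0.09 in KO 2 (the latter -0.02 with quantile normalization). The counts were 3 above and 1 below with quantile normalization, and 5 and 2 with median-of-ratios scaling. The 4 with the smallest p, Btg4, Nanos1, Cpeb1 and Nanos2, are known from germ cells, and Btg4 was 113 and 105 in WT, 277 in labelled KO 1 and 149 in KO 2. Of 27 other mRNA decay factors 6 (22.2%) were above and 4 (14.8%) below in both, again near the shares of all genes. Patl2, an oocyte form of a decapping activator, was 4.04 and 3.53 in WT, 14.4 in labelled KO 1 and 8.94 in KO 2, a difference of 1.37 (SE 0.244, limma adjusted p = 0.457).

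Oocyte genes were the group most uniformly higher in KO. Of 38 oocyte genes in 3 lists, 37 (97.4%) had both KO libraries above the WT range, and 0 had both below, beside 23.2% and 15.7% of all genes. The median difference of the 38 from the WT mean was 1.25 in labelled KO 1 and 0.48 in KO 2. An unadjusted limma p under 0.05 was found for 23 of the 38, all higher, beside 879 higher among the 12841 genes. Both KO libraries were above for 34 with quantile normalization and 35 with median-of-ratios scaling, with 0 below in either. At 0 h, 35 of the 38 also had both KO libraries above WT, beside 26.2% of all genes. In these bulk libraries, more oocytes among the cells and more of each RNA per oocyte cannot be told apart.

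The 8 genes of the egg coat and of secreted factors were all higher. Gdf9, an oocyte growth factor for granulosa cells, was 228 and 237 FPKM in WT, 561 in labelled KO 1 and 347 in KO 2, a difference of 0.92 (SE 0.302, limma adjusted p = 0.497). Bmp15, its partner, was 52.6 and 33.1 in WT, 113 in labelled KO 1 and 76.3 in KO 2. Astl, the ovastacin protease that Fetub protein inhibits, was 16.8 and 17.2 in WT, 46.0 in labelled KO 1 and 37.1 in KO 2, a difference of 1.23 (SE 0.227, adjusted p = 0.457). Labelled KO 1 was the highest library and KO 2 the next for each of them. The zona pellucida genes kept that order with KO 2 closer to WT: Zp3 was 158 and 168 in WT, 396 in labelled KO 1 and 229 in KO 2, and Zp2 was 39.7 and 34.0, 90.1 and 46.6. Oosp1 was 43.6 and 31.4, 111 and 59.8.

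All 16 maternal-effect genes, whose products are stored for the early embryo, were likewise above WT in both KO libraries. Nlrp5 (also known as Mater) was 38.5 and 35.2 in WT, 74.1 in labelled KO 1 and 67.1 in KO 2. Nlrp4f was 37.0 and 30.8 in WT, 108 in labelled KO 1 and 70.9 in KO 2, and Npm2, a histone chaperone of the egg, was 51.1 and 49.3, 152 and 82.4. For Nlrp5 the KO libraries were nearly level, and for Npm2 labelled KO 1 was far above KO 2. H1foo, the oocyte linker histone, was the most abundant per length, at 404 and 448 in WT, 1014 in labelled KO 1 and 589 in KO 2. Of 14 oocyte transcription and RNA-binding factors, 13 were above in both. Nobox, a transcription factor of growing oocytes, was 20.1 and 22.2 in WT, 67.8 in labelled KO 1 and 42.5 in KO 2. Dazl, an RNA-binding protein, was 14.4 and 11.6 in WT, 35.4 and 22.3 in KO, and Kit, the receptor for granulosa KIT ligand, was 5.15 and 2.73, then 8.28 and 7.75. The exception was Tdrd5, a Tudor-domain protein, at 44.3 and 54.4 in WT, 81.8 in labelled KO 1 and 22.3 in KO 2, which put the KO libraries on opposite sides.

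Cell division genes were also higher, by smaller amounts. Of 50 mitosis and G2/M genes, 45 (90.0%) had both KO libraries above WT and 0 both below, beside 23.2% and 15.7% of all genes. Medians were 0.47 in labelled KO 1 and 0.33 in KO 2. An unadjusted limma p under 0.05 was found for 22, all higher in KO, beside 879 higher among the 12841 genes. Under quantile normalization 46 had both above and under median-of-ratios scaling 39, with 0 below. At 0 h, 21 of the 50 had both KO libraries above and 3 both below, beside 26.2% and 19.8% of all genes. Oocytes also express many of the listed genes, and their part in the count was not tested. Nusap1, a spindle protein, was 40.6 and 33.9 in WT, 62.3 in labelled KO 1 and 60.4 in KO 2, a difference of 0.71 (SE 0.168, limma adjusted p = 0.457). Hmmr, a spindle-assembly and hyaluronan-binding protein, was 35.1 and 27.0 in WT, 62.3 in labelled KO 1 and 55.6 in KO 2. Ckap2, a microtubule-associated protein, was 16.4 and 12, then 25.4 and 22.2, and Kif23, a kinesin of the dividing cell's midzone, was 22.9 and 22, then 40.0 and 34.8. In these 4 genes the KO libraries lay close together and apart from WT, a layout favoured by their choice for the smallest p. The 5 genes that did not have both KO libraries above were Cdk1, Cenpa, Cdca3, Foxm1 and Spag5.

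Of 48 DNA replication and G1/S genes, 34 (70.8%) had both KO libraries above and 0 below, beside 23.2% and 15.7% of all genes. Medians were 0.56 in labelled KO 1 and 0.19 in KO 2. The count above was 29 with quantile normalization and 25 with median-of-ratios scaling, the latter with 1 below. At 0 h it was 7 above and 3 below, beside 26.2% and 19.8% of all genes. Msh6, a mismatch repair protein, was 13.4 and 11 in WT, 21.2 in labelled KO 1 and 18.8 in KO 2, a difference of 0.67 (SE 0.19, limma adjusted p = 0.488). Prim2, the large primase subunit, was 18.1 and 18.2 in WT, 28.2 in labelled KO 1 and 25.0 in KO 2. Mcm4, of the replicative helicase, was 35.5 and 38.9, then 62.9 and 49.2, and Cdc45, which activates that helicase, was 17.2 and 20.2, then 27.8 and 25.7. All 4 had separate genotypes, which their choice for the smallest p favours, and labelled KO 1 was highest. Mcm2, Mcm6, Mcm7 and all 4 Gins genes were among the 14 without both libraries above.

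Promoters of the cell division genes are shown because members of the list lay on the same side of WT together. Windows of 250 bases before to 50 bases after the start, from RefSeq on GRCm38.p6, were found for 41 of the 50 mitosis and G2/M genes (44 windows). CCAAT on either strand was in 34 of the 44 (77.3%) against 37.4% of all 32851 windows, and TTTGAA, as found in cell cycle homology regions, in 31 (70.5%) against 17.9%. For the G1/S list 38 of 48 genes had 43 windows. TTTGGCGC or TTTCCCGC, forms of the E2F site, were in 12 (27.9%) against 1.56% of all windows, and in 0 of the 44 G2/M windows. CCAAT and TTTGAA were in 26 (60.5%) and 5 (11.6%) of the G1/S windows. Both strands were searched, and no motif contains another. The 120 bases before the start follow, 5′ to 3′ on the gene's strand, for the 3 of the 4 leading mitotic genes with a match, with CCAAT (or its reverse complement ATTGG) and TTTGAA in capitals.
Hmmr, chr11:40733438-40733557, minus strand: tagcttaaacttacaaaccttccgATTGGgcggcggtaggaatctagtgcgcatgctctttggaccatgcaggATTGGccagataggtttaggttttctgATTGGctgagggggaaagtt
Ckap2, chr8:22185820-22185939, minus strand: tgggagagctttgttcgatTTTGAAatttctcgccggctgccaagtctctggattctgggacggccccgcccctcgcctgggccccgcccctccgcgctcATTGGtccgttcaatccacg
Kif23, chr9:61946800-61946919, minus strand: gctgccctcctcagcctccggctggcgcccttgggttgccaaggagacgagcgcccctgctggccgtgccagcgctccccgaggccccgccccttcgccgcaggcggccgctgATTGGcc
Hmmr has 3 such matches in this stretch, the nearest starting 20 bases before the start, Ckap2 has 1 at 20 bases and TTTGAA at 101 bases, and Kif23 has 1 at 7 bases. Nusap1 has neither motif in these 120 bases. Of the leading G1/S genes, Msh6 and Cdc45 have no form of the E2F site in theirs, and each holds CCAAT there. The shares above are of whole lists, whichever side of WT a gene lay on. A match describes the sequence only.

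D cyclins and CDK inhibitors split by library. Of 11, 8 were below WT in labelled KO 1 and 6 above in KO 2, beside 38.4% and 41.2% of all genes. Of the 11, 5 lay on opposite sides in that order (4 with quantile normalization), beside 11.4% of all genes. Medians were -0.81 and 0.27. Ccnd2, the cyclin of FSH-driven granulosa proliferation, was 127 and 171 in WT, 290 in labelled KO 1 and 163 in KO 2. Cdkn1b, a CDK inhibitor, was 46.4 and 18.4 in WT, 9.12 in labelled KO 1 and 50.5 in KO 2. The WT libraries themselves were far apart for Cdkn1b. Cdkn1c was 23.2 and 9.94, then 6.23 and 10.5, with KO 2 inside the WT range.

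**Figure D3:**
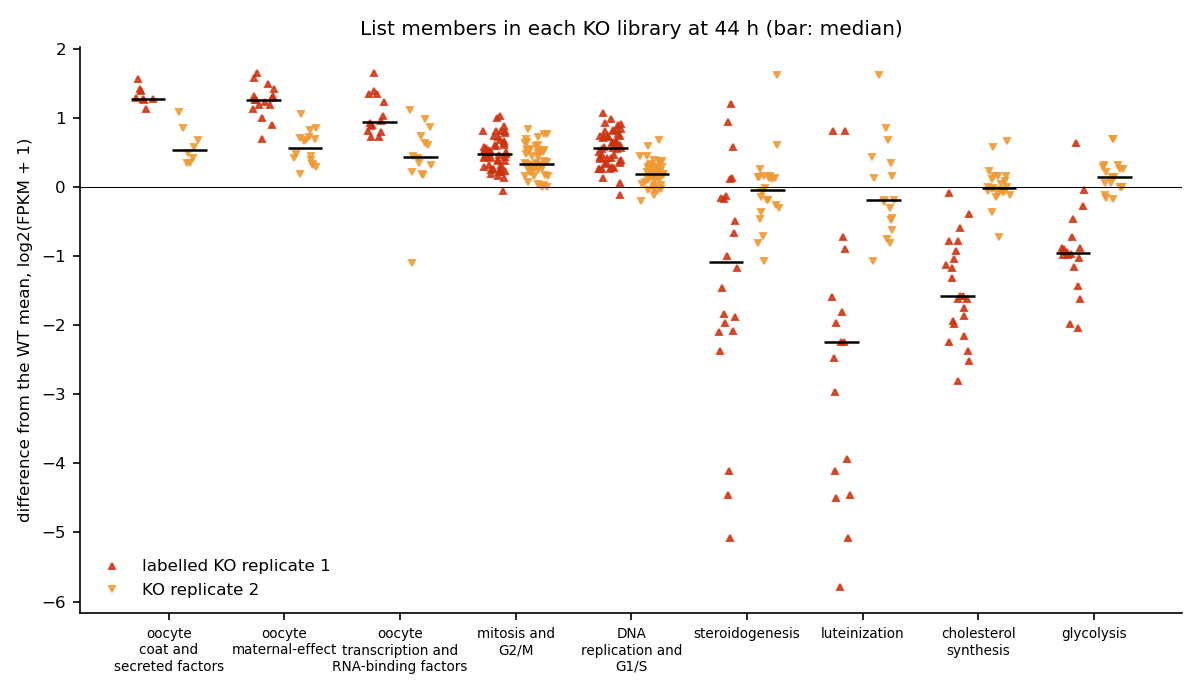
Members of 9 gene lists as differences from the WT mean at 44 h, log2(FPKM + 1), with labelled KO 1 as upward and KO 2 as downward triangles and a bar at each median. Oocyte and cell division genes lie above 0 in both libraries apart from Tdrd5 and a few near 0, whereas steroidogenesis, luteinization, cholesterol synthesis and glycolysis genes lie mostly below 0 in labelled KO 1, with medians of -1.09, -2.25, -1.58 and -0.96, and nearer 0 in KO 2, with medians of -0.05, -0.19, -0.02 and 0.14.

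Genes of the differentiated, steroid-producing follicle were lower mainly in labelled KO 1. Among 17 luteinization genes the median was -2.25 in labelled KO 1 and -0.19 in KO 2. Of the 17, 10 (58.8%) had both KO libraries below the WT range and 2 (11.8%) both above, beside 15.7% and 23.2% of all genes. Lhcgr, the LH receptor, was 299 and 308 FPKM in WT, 18.8 in labelled KO 1 and 261 in KO 2, and at 0 h no library exceeded 5.33. Sfrp4, a secreted WNT antagonist of luteal cells, was 904 and 735 in WT, 13.7 in labelled KO 1 and 598 in KO 2. Prlr, the prolactin receptor, was 204 and 234, then 27.1 and 176. KO 2 was thus slightly below WT for these 3 and labelled KO 1 more than 2 log2 units below. Scarb1, which takes up cholesterol from lipoproteins, was 409 and 450 in WT, 141 in labelled KO 1 and 279 in KO 2, a difference of -1.11 (SE 0.303, limma adjusted p = 0.487). Cited1, a transcriptional cofactor, had nearly level KO libraries, at 32.4 and 42.8 in WT, 22.2 and 21.6 in KO. Abca1, a cholesterol exporter, and Apoe, which carries exported cholesterol, were the members above WT: Abca1 was 3.13 and 2.32 in WT, 5.44 in labelled KO 1 and 5.69 in KO 2, and Apoe was 292 and 254, then 474 and 434.

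Of 22 steroidogenesis genes, 9 (40.9%) had both KO libraries below WT and 0 both above, beside 15.7% and 23.2% of all genes, with medians of -1.09 in labelled KO 1 and -0.05 in KO 2 (0.04 with quantile normalization). Cyp11a1, which cleaves the cholesterol side chain, was 4451 and 4339 in WT, 129 in labelled KO 1 and 2508 in KO 2. Its distance from the WT mean in labelled KO 1, -5.08, was the largest shortfall there within the list, and in KO 2 it was -0.81. Star, which delivers cholesterol to mitochondria, was 132 and 205 in WT, 8.61 in labelled KO 1 and 77.7 in KO 2, a difference of -2.59 (SE 0.907, limma adjusted p = 0.497). Fdxr, ferredoxin reductase, was 116 and 96.6, then 29.0 and 76.0. Srd5a1, steroid 5-alpha-reductase, was 11.6 and 10.3, then 1.80 and 6.27. In these genes both KO libraries lay below WT with labelled KO 1 lowest. Cyp19a1, the aromatase that makes estradiol, was 96.4 and 130 in WT, 29.4 in labelled KO 1 and 122 in KO 2, and Hsd17b1 was 515 and 646, 621 and 689. Nr5a1, a transcription factor of steroid-producing cells, was 42.6 and 45.9, 40.3 and 41.8, so its shortfall was small.

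The cholesterol synthesis list split by library. Labelled KO 1 was below WT for 22 of 23 genes, beside 38.4% of all genes, with a median of -1.58. KO 2 was below for 5, above for 7 and inside the WT range for 11, with a median of -0.02. The shares of all genes in KO 2 were 29.3% below, 41.2% above and 29.5% inside. With median-of-ratios scaling KO 2 was below for 10 and above for 5, and both KO libraries were below for 10 rather than 5. As deposited, both were below for 15.7% of all genes. Lss, lanosterol synthase, was 36.4 and 36.3 in WT, 5.53 in labelled KO 1 and 33.3 in KO 2, and Dhcr7, which makes cholesterol from its last precursor, was 98.3 and 110, then 14.0 and 80.3. KO 2 thus stood below WT by little for these genes, which were several fold lower in labelled KO 1. Sc5d was different, at 181 and 192 in WT, 142 in labelled KO 1 and 112 in KO 2. At 0 h, 18 of the 23 had both KO libraries below both WT libraries, beside 19.8% of all genes at 0 h. Among 14 lipoprotein uptake and cholesterol storage genes 5 (35.7%) were below and 3 (21.4%) above in both, beside 15.7% and 23.2% of all genes. Npc2, which moves cholesterol out of lysosomes, was 147 and 174, then 69.8 and 115.

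The follicle's matrix genes followed the same order, with 13 of 16 below WT in labelled KO 1 and 6 of 16 in KO 2. The shares of all genes below were 38.4% and 29.3%. Medians of the list were -0.70 and 0.09 (the latter -0.06 with quantile normalization). Sparc, a matrix-binding glycoprotein, was 541 and 589 in WT, 107 in labelled KO 1 and 409 in KO 2. Lamb2, a laminin chain, was 19.3 and 20.8, then 6.64 and 13.0, and Col4a2, of basement membrane collagen, was 17.4 and 13.2, then 3.75 and 9.89. Egfl6 went the other way, at 1.84 and 2.33 in WT, 3.27 in labelled KO 1 and 5.54 in KO 2.

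Granulosa identity genes were detected in every library at 44 h, the lowest at 3.40 FPKM. Of 18, 5 (27.8%) were above WT in both KO libraries and 1 (5.56%) below, beside 23.2% and 15.7% of all genes. Another 4 had the KO libraries on opposite sides, 3 with labelled KO 1 above and 1 the reverse. The shares of all genes were 9.38% and 11.4%. The list medians were 0.22 and 0.17. Foxl2, the transcription factor that keeps granulosa fate, was 25.2 and 18.6 in WT, 24.4 in labelled KO 1 and 24.9 in KO 2. Inha, the inhibin alpha subunit and the most abundant of the list per length, was 10434 and 13006 in WT, 23238 in labelled KO 1 and 13862 in KO 2. Its difference was 0.62 (SE 0.32, limma adjusted p = 0.554) and became about 0 with quantile normalization. That scaling gives genes of equal rank equal values, so it can level a gene this abundant whatever its difference. Fst, follistatin, which binds activin, was 479 and 561, then 626 and 620, and Gja1, the connexin between granulosa cells, was 3034 and 2874, then 3601 and 3982. Fshr, the FSH receptor, was 83.9 and 110 in WT, 89.6 in labelled KO 1 and 154 in KO 2. For Foxl2 both KO libraries were inside the WT range, and for Fst and Gja1 both were above it.

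Across 19 FSH-induced genes, 4 were above and 4 below in both KO libraries, beside 23.2% above and 15.7% below among all genes (each 4 being 21.1%). Another 5 were below in labelled KO 1 but above in KO 2, beside 11.4% of all genes. With median-of-ratios scaling these counts were 2, 5 and 3. Inhba, the activin subunit, was of the latter kind, at 2520 and 3097 in WT, 1300 in labelled KO 1 and 3879 in KO 2. Sgk1, a kinase induced by FSH, was 204 and 190 in WT, 19.9 in labelled KO 1 and 190 in KO 2. Grb14, an adaptor of insulin receptor signalling, was 295 and 299, then 263 and 174. Of 21 LH and ovulation genes 4 were above and 4 below in both (each 4 being 19%), beside 23.2% and 15.7% of all genes. Edn2, an endothelin of the ovulating follicle, was 10.2 and 2.84 in WT, 0.458 in labelled KO 1 and 2.2 in KO 2, and Egfr was 6.21 and 5.36, then 7.53 and 8.24. The 29 activin, inhibin and TGF-beta family genes gave 7 above (24.1%) and 4 below (13.8%) in both, near the shares of all genes. Of their 4 leading members, 3 were higher in KO: Bmpr1b, and Bmp15 and Gdf9, which are also among the oocyte genes above. Bmpr1b, a BMP receptor, was 34.3 and 15.6 in WT, 39.9 and 38.9 in KO. Id2, a target of BMP signalling, was 551 and 202 in WT, 72.3 in labelled KO 1 and 237 in KO 2, with KO 2 inside the WT range.

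Many ribosomal protein and glycolysis genes placed the KO libraries on opposite sides of WT. Of 77 cytosolic ribosomal protein genes, 74 were above WT in labelled KO 1 and 75 below WT in KO 2, and 72 did both, beside 9.38% of all genes. Their medians were 0.43 and -0.36. With quantile normalization 58 did both and the medians were 0.37 and -0.18, and with median-of-ratios scaling 64 did, at 0.39 and -0.44. Rps25 was 721 and 612 in WT, 1154 in labelled KO 1 and 577 in KO 2, and Rps14 was 2238 and 2728, then 2684 and 1823. The 5 exceptions were Rps14 and Rplp0, with labelled KO 1 inside the WT range, Rpl7a, with KO 2 inside it, and a pair with both KO libraries on the same side. Of that pair, Rpl30 was lower in both KO libraries, at 73.4 and 76.4 in WT, 55.6 and 56.2 in KO, and Rpl26 higher in both, at 99.1 and 131, then 229 and 136. Ribosomal protein genes have many processed pseudogenes, so reads can be split among copies.

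Glycolysis genes had the reverse order. Of 18, 16 were below WT in labelled KO 1 and 10 above WT in KO 2, and 10 (12 with quantile normalization, 7 with median-of-ratios scaling) did both, beside 11.4% of all genes. Pfkl, a phosphofructokinase, was 72.5 and 66.3 in WT, 30.6 in labelled KO 1 and 112 in KO 2, and Ldha, which makes lactate, was 1024 and 1072, then 561 and 1155. Pgam1 was lower in both, at 519 and 542 in WT, 266 and 474 in KO. Ldhb, the other lactate dehydrogenase subunit, was 762 and 1020, then 1371 and 881, and so was the gene above WT in labelled KO 1. Respiratory chain genes differed less. Of 71, 49 were below WT in KO 2, beside 29.3% of all genes, with a list median of -0.23. In labelled KO 1, 39 of the 71 were inside the WT range, beside 19.2% of all genes, with a list median of 0.06. WT replicate 1 minus WT replicate 2 had a median of -0.30 in this list and 0.06 over all genes, so the WT range was wider here. The KO 2 count was 18 with quantile normalization and 56 with median-of-ratios scaling, and the KO 2 median was -0.05 and -0.31. Atp5g3, an ATP synthase subunit, was 509 and 657 in WT, 519 in labelled KO 1 and 419 in KO 2.

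**Figure D4:**
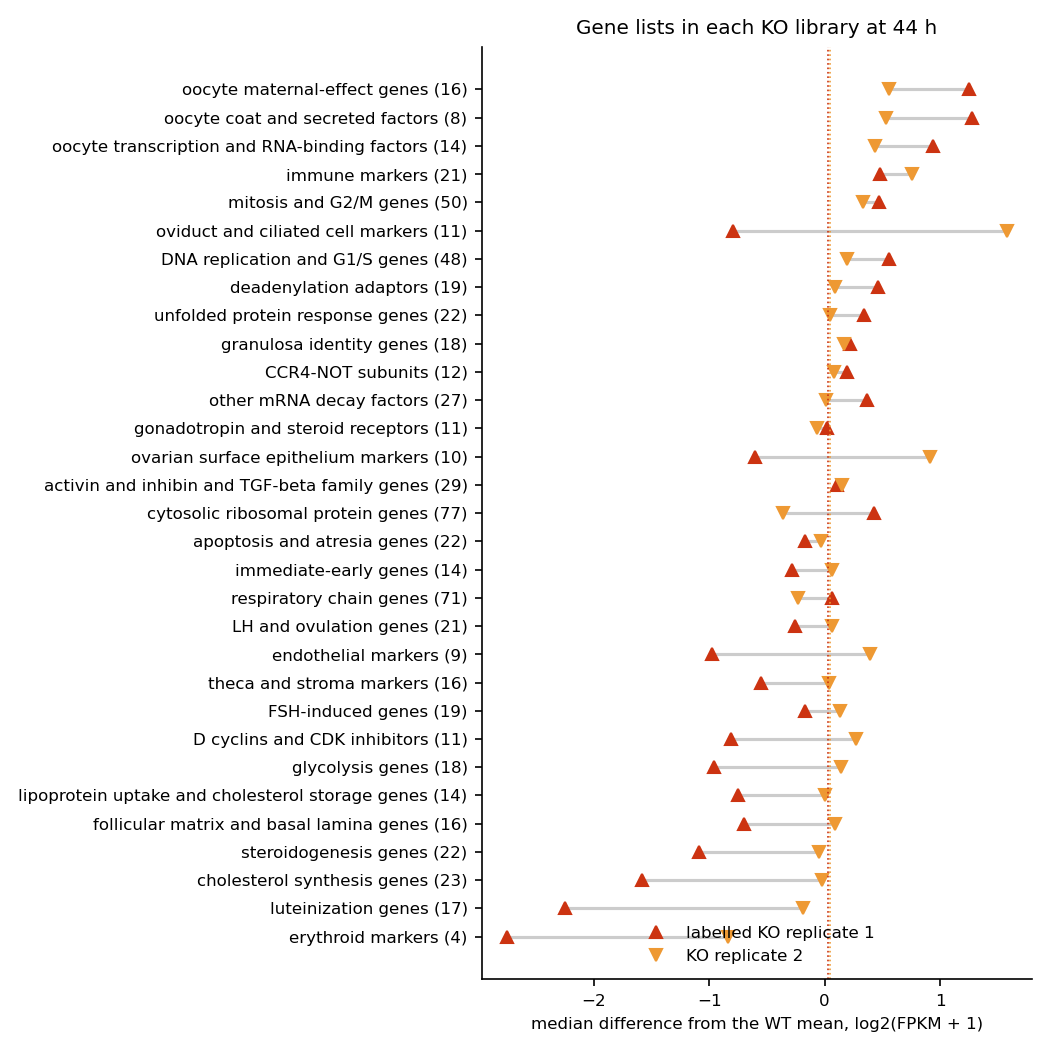
Median difference from the WT mean of each of the 31 gene lists, log2(FPKM + 1) at 44 h, in labelled KO 1 (upward triangle) and KO 2 (downward triangle), with members in parentheses and dotted lines at the medians over all 12841 genes. The 3 oocyte lists, the cell division lists and immune markers lie to the right in both libraries, and ribosomal protein genes, surface epithelium markers and oviduct markers have medians on opposite sides of 0.

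Stress and signalling genes gave mixed positions. Of 22 unfolded protein response genes 9 (40.9%) had both KO libraries above WT and 0 both below, beside 23.2% and 15.7% of all genes. The count above was 11 (with 1 below) with quantile normalization and 4 with median-of-ratios scaling. Medians were 0.34 and 0.05 (-0.04 in KO 2 with median-of-ratios scaling). Hyou1, an endoplasmic reticulum chaperone, was 7.59 and 4.06 in WT, 10 in labelled KO 1 and 14.3 in KO 2. Of 22 apoptosis and atresia genes 8 (36.4%) were below and 2 (9.09%) above in both, beside 15.7% and 23.2% of all genes. The count above was 0 with quantile normalization and 1 with median-of-ratios scaling. Gadd45b, a stress-induced gene, was 8.27 and 6.18 in WT, 2.24 in labelled KO 1 and 3.17 in KO 2, a difference of -1.15 (SE 0.268, limma adjusted p = 0.457). Bad, which promotes cell death, was 31.9 and 33.8, then 19.1 and 26.5, and Bax was 201 and 230, 174 and 192. For Gadd45b, Bad and Bax both KO libraries were below WT, with labelled KO 1 lowest.

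Of 14 immediate-early genes 2 (14.3%) were above and 3 (21.4%) below in both KO libraries, beside 23.2% and 15.7% of all genes. Fos was 15.8 and 15.2 in WT, 189 in labelled KO 1 and 17.3 in KO 2. Jun was 28.7 and 16.8, then 73.5 and 19.3, and Ier2 was 70.9 and 63.0, then 197 and 70.5. These 3 genes were far above WT in labelled KO 1 and near or inside the WT range in KO 2, whereas Dusp1, a MAP kinase phosphatase usually induced beside them, was 104 and 87.0 in WT, 22.7 in labelled KO 1 and 79.2 in KO 2. Klf6 was 28.2 and 32.4, then 12.3 and 21.7.

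Markers of other cells differed between the KO libraries as well. Of 21 immune markers 12 (57.1%) were above WT in both KO libraries and 0 below, beside 23.2% and 15.7% of all genes. Medians of these markers were 0.48 in labelled KO 1 and 0.76 in KO 2. Their summed level was 361 to 502 FPKM in WT and 649 to 838 in KO. Ctss, a macrophage protease, was 32.8 and 23.3 in WT, 63.3 in labelled KO 1 and 69.4 in KO 2, and C1qb, a complement subunit, was 36.3 and 29.1, then 67.2 and 55.9. Ptprc, the pan-leukocyte antigen CD45, was low throughout, at 1.06 and 0.566 in WT, 0.837 and 2.76 in KO. Their part in the histocompatibility and S100a8 results was not tested.

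Surface epithelium markers were on opposite sides: all 10 were above WT in KO 2 and 8 below in labelled KO 1. The shares of all genes were 41.2% and 38.4%. Sums of these markers were 235 to 238 in WT, 144 in labelled KO 1 and 459 in KO 2. Krt19, a keratin, was 37.9 and 32.3 in WT, 8.41 in labelled KO 1 and 78.0 in KO 2. Oviduct and ciliated cell markers also varied within WT, with sums of 464 and 71.6 there, 71.9 in labelled KO 1 and 550 in KO 2. Ovgp1, the oviduct glycoprotein, was 366 and 6.05 in WT, 3.04 in labelled KO 1 and 279 in KO 2, so WT replicate 1 and KO 2 were the high libraries. Endothelial markers were below WT in labelled KO 1 for 8 of 9, except Sox18, which was 3.02 and 1.22 in WT, 9.70 and 6.10 in KO, and above WT in KO 2 for 7 of 9. Theca and stroma markers had 5 of 16 (31.2%) below and 1 (6.25%), Dcn, above in both, beside 15.7% and 23.2% of all genes. Dcn, a matrix proteoglycan, was 56.4 and 54.4 in WT, 101 in labelled KO 1 and 120 in KO 2. Acta2, smooth muscle actin, was 50.4 and 62.4, then 23.2 and 32.4. All 4 red cell markers included were below WT in both KO libraries, beside 15.7% of all genes. Their sums were 339 to 361 in WT, 40.2 in labelled KO 1 and 189 in KO 2, of which Hba-a2 was 289 and 278, then 32.5 and 155. At 0 h these markers varied widely within each genotype, and Hba-a2 was 546 and 71 in WT, 734 and 85.4 in KO. No marker of these lists was listed at 0 in KO 2, and in labelled KO 1 only Wfdc2, an oviduct marker, was. The part of these cells in the KO differences was not tested.

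Genes far from WT in 1 KO library with the other within 0.5 of the WT range show how much rests on each. Besides Lhcgr and Sfrp4, labelled KO 1 alone was low for Plin5, a lipid droplet protein, at 52.3 and 69.0 in WT, 0.457 in labelled KO 1 and 46.6 in KO 2. Ptgfr, the prostaglandin F receptor, was 29.3 and 25.9, then 0.264 and 37.6, and Tinagl1, a matrix protein, was 145 and 101, then 2.54 and 104. At 0 h Plin5 ranged from 0.610 to 1.01 and Ptgfr from 0.178 to 0.320 over all 4 libraries, so labelled KO 1 at 44 h was near the untreated libraries. Timp4, an inhibitor of matrix proteases (25.0 and 32.9, 0.393 and 33.1), and Apln, a vascular peptide (25.8 and 12.8, 0.189 and 11.4), were further examples. Amd1, an enzyme of polyamine synthesis, was 28.7 and 20.8 in WT, 0.154 in labelled KO 1 and 23.4 in KO 2. Amd2, its near-identical copy, was 5.36 and 4.18, then 38.7 and 12.9, so the split of reads between them is uncertain and the Amd1 value cannot stand alone.

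Labelled KO 1 alone was high for Apoa1, an HDL protein, at 91.5 and 148 in WT, 794 in labelled KO 1 and 86.9 in KO 2, and for Akr1c13, an aldo-keto reductase, at 8.84 and 8.30, then 88.6 and 12.1. Cd83, a surface glycoprotein, was 13.3 and 6.77, then 65.1 and 9.88. Hebp1, Plbd1, Sult1e1, Fos and the pseudogene Rps19-ps3, whose reads overlap those of its parent gene, completed this set. Apoa1 at 0 h was 359 to 456 in WT and 590 to 846 in KO, so its level in labelled KO 1 at 44 h was within the untreated KO range.

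KO 2 alone was high for genes of ciliated epithelium and others. Tmem212 was 6.51 and 5.44 in WT, 4.48 in labelled KO 1 and 127 in KO 2. Sntn, a protein of the ciliary tip, was 1.43 and 0.317, then 0.0766 and 17.5, and Ccdc153 was 3.88 and 0.744, then 0.270 and 28.2. These went with the oviduct and ciliated cell markers above, whose part in them was not tested. Serpina3a was 9.22 and 8.60 in WT, 7.36 in labelled KO 1 and 245 in KO 2, and at 0 h was high in 1 library of each genotype, at 213 in WT and 111 in KO. Tmem87a, at 1.37 and 1.30 in WT, 1.72 in labelled KO 1 and 21.9 in KO 2, was likewise high in 1 library of each genotype at 0 h, at 22.9 in WT and 26.1 in KO. KO 2 alone was low for Agt and others: Agt, angiotensinogen, was 84.4 and 116 in WT, 107 in labelled KO 1 and 41.4 in KO 2, and Pik3ip1, an inhibitor of PI3 kinase, was 35.5 and 61.7, then 62.3 and 15.1. At 0 h Agt was 150 and 154 in WT, 162 and 64.5 in KO, and Pik3ip1 was 147 and 165, then 118 and 54. For Agt and Pik3ip1, KO replicate 2 was thus the lowest library at 0 h as well.

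Both KO libraries were at least 1 outside the WT range on opposite sides for 4 genes with labelled KO 1 above and 13 with KO 2 above. Amh, the anti-Müllerian hormone of small follicles, was 19.1 and 20.5 in WT, 46.4 in labelled KO 1 and 8.47 in KO 2, beside 61.6 to 104 over all libraries at 0 h. Slc38a3, a glutamine transporter, was 22.3 and 26.6, then 72.1 and 5.87, and Wfdc10 was 76.2 and 77.6, then 217 and 32.4. Of the reverse kind, Akr1c18, which inactivates progesterone, was 54.6 and 45.7 in WT, 1.31 in labelled KO 1 and 155 in KO 2, beside 1.18 to 8.24 at 0 h. Ndufa4l2 was 8.10 and 8.66, then 1.15 and 30.8, and Krt7, a surface epithelium marker, was 10.6 and 11.8, then 1.84 and 36.0. These genes were chosen for KO libraries far out on opposite sides, so that layout is given by the choice. In each of them the WT libraries were close together and the mean of the KO libraries hid a pair of opposite values. For Amh the difference of means was 0.03 (SE 0.653).

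**Figure D5:**
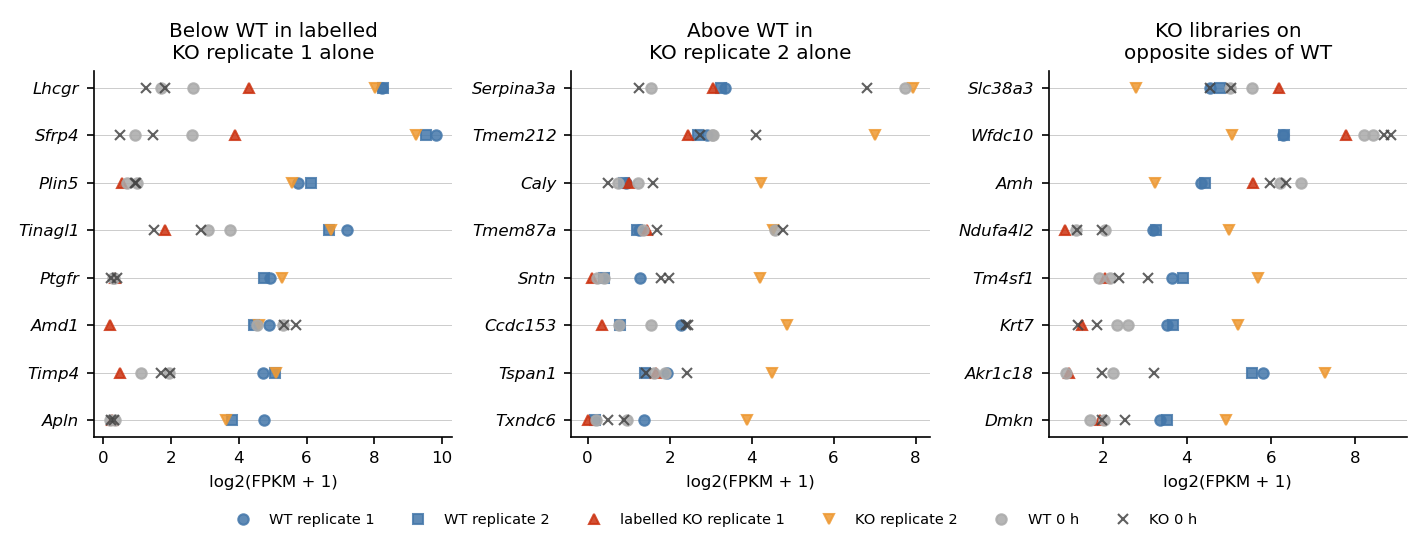
Genes set apart by a single KO library or with the KO libraries on opposite sides of WT, on log2(FPKM + 1), with 44 h libraries in colour and the 4 libraries at 0 h as grey circles (WT) and crosses (KO). In the left panel labelled KO 1 lies at or near the untreated libraries for Plin5, Ptgfr and Apln and far below them for Amd1, and in the right panel the KO libraries flank WT, as for Akr1c18 at 1.31 and 155 FPKM.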

How the data were processed

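The authors deposited 1 table of FPKM values for 23235 gene symbols, with a column per library, per the file headers. The submitters' processing notes list TopHat2 2.1.1, Cufflinks 2.2.1 and mm9 without saying what each was used for. Annotation and filters: not given in the sources used here. FPKM are not counts, so no count model was used, and an FPKM of 0 can be a failed estimate.

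Values were analysed as log2(FPKM + 1), a scale that shrinks differences of weakly expressed genes. Genes with FPKM of at least 1 in at least 2 of 8 libraries (13688) entered a limma 3.58.1 fit (R 4.3.3, trended empirical Bayes, 4 group means, 4 residual degrees of freedom, two-sided), with Benjamini-Hochberg adjustment over all of them. The script was tested on simulated data. Positions against the WT range used the 4 libraries at 44 h. Relative depth, where 1 is the median library, came from ratios of values under 0.5 FPKM.

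Named genes were Cnot6, Cnot6l, the called genes, the 12 widest gaps between genotypes in each direction, for each list the 4 genes of smallest p, the 8 genes furthest out in a single KO library in each direction, and up to 5 of each kind with the KO libraries most opposed. Except for list members and the targeted genes, they had an FPKM of at least 5 in the higher group or library and no predicted, clone or short RNA symbol. Further list members are named as examples, chosen after their values were seen, as was Amd2. The members and the 31 lists (692 symbols, of which 691 were found and 647 were included) were chosen with earlier results of these data known. Cnot11 and Khdc3 were matched by synonym. Alternatives covered the pseudocount, filters, scalings, libraries in the fit, a replicate block and leaving out each library. Promoters are from RefSeq tables on GRCm38.p6, another build than mm9.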

Additional observations from a re-analysis of the deposited data

Results flagged for a closer look

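In 4 named genes the KO libraries lay on one side of WT at 44 h and on the other side at 0 h, with no overlap at either time. The values given are the KO minus WT difference at 44 h minus that at 0 h, on log2(FPKM + 1), and these differences were not tested. Cst8 was -2.08: at 0 h it was 13.1 and 15.4 FPKM in WT against 21.6 and 17.5 in KO. Dusp1 was -1.67, with 15.2 and 18.4 in WT against 28.8 and 21.1 in KO at 0 h. Gadd45b was -1.83, with 7.97 and 12.6 in WT against 17.6 and 15.7 in KO at 0 h. Rpl26 was 1.62, with 196 and 217 in WT against 99.9 and 106 in KO at 0 h.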

How the results depend on the processing

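The number of genes called (3) was 27 with no filter on low values, 6 with only the libraries at 44 h and 0 without short RNA gene entries (added after seeing the data), and ranged from 2 to 801 when a library was left out. With a replicate block it was 3. The numbers do not pair the libraries by any label, and the replicate differences of KO and WT had r = -0.135 across genes, which says little with 2 pairs. The genes with both KO libraries at least 1 above (48) and below (18) WT, those with labelled KO 1 above (498) and below (585) and those with KO 2 above (195) and below (44) became 126, 31, 774, 900, 339 and 90 with a pseudocount of 0.1. At a distance of 0.5 they were 394, 101, 1742, 1628, 826 and 256, and at a distance of 2 they were 8, 4, 37, 125, 30 and 9. KO 2 above WT was 301 with no filter and 109 with FPKM of at least 5. Against a single WT library the 6 counts ranged over 91 to 169, 39 to 69, 693 to 844, 747 to 994, 281 to 583 and 118 to 119. The difference changed sign, for genes not called, when a single library was left out, over these ranges: Cnot6 -0.58 to 0.01, Lsm3 -0.01 to 0.92, Cdkn2c -0.37 to 0.02, Hk2 -1.03 to 0.05, Rps25 -0.20 to 0.80, Rplp0 -0.47 to 0.09, Emcn -1.46 to 0.07, Sox17 -1.74 to 0.27, Cldn5 -1.52 to 0.39, Krt8 -0.03 to 0.74, Lrrn4 -0.02 to 0.43, Upk1b -0.72 to 1.61, Tppp3 -0.34 to 2.21 and Epcam -0.69 to 1.58. The library was KO 2 for Cnot6, Rplp0, Krt8, Lrrn4, Upk1b, Tppp3 and Epcam, labelled KO 1 for Lsm3, Cdkn2c, Hk2, Rps25, Emcn and Cldn5, and WT replicate 1 for Sox17. The cause was not tested. Libraries of 2 a group and FPKM without counts limit the precision.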

Other observations

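Beyond H2-Q6 and H2-Q7, other genes of class I antigen presentation lay above WT in both KO libraries. This set of 18 was chosen after its values were seen, so its counts describe it only. At 44 h 13 had both KO libraries above WT and 0 both below, beside 23.2% and 15.7% of all genes. At 0 h 14 had both above, beside 26.2% of all genes. H2-K1, a classical class I gene, was 165 and 173 FPKM in WT, 384 in labelled KO 1 and 331 in KO 2 (limma difference 1.07, adjusted p = 0.457). H2-D1 was 188 and 175, then 459 and 371, and B2m, the shared light chain, was 751 and 615, then 1827 and 1107. In these abundant genes both KO libraries were separate from WT, and the class I genes other than B2m share sequence, so reads can be split among them. In 4 of the 18 labelled KO 1 was below WT and KO 2 above it: H2-Q10, a secreted class I protein, at 23.5 and 25.4 in WT, 1.75 in labelled KO 1 and 47.3 in KO 2, and H2-T22, Tap2 and Tapbp, the last at 55.1 and 63.6, then 36.6 and 71.4. At 0 h H2-K1 was 109 and 81.5 in WT against 211 and 167 in KO. Of 21 immune markers 12 were also above WT in both KO libraries at 44 h. At 0 h 2 of the 21 were above in both and 0 below. The part of immune cells in the class I values was not tested.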
